A study of Mus musculus with 7 samples.

Results

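Type I interferon stimulated antiviral genes were examined in subcutaneous mouse pancreatic ductal adenocarcinoma (PDA) tumors with and without an edit of *Krt19*, which encodes the epithelial keratin 19. The group comprised 39 genes chosen by name, and all 39 were found among the 38026 rows of the deposited expression table. Type I interferons are secreted when a cell senses foreign or misplaced nucleic acid, and they bind a receptor made of IFNAR1 and IFNAR2. The kinases JAK1 and TYK2 then activate a transcription factor complex that holds STAT2 and IRF9 and binds the interferon-stimulated response element (ISRE) at target genes. The proteins made from these genes detect viral RNA, block its translation, degrade it or hold back new virions, and in tumors the same genes are a common readout of interferon signaling. Many of them also respond to interferon-γ (IFN-γ), the type II interferon of T cells and natural killer cells, which has a receptor of its own.

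Both groups of tumors were formed in C57BL/6 mice with 1242 cells, a line from a pancreatic tumor of a KPC mouse, whose tumor-driving alleles are switched on by a *Pdx1*-driven Cre, and were taken 2 weeks after inoculation without treatment. The 4 control tumors (sgScramble, replicates 1 to 4) carried SpCas9 and a scrambled guide, and the 3 edited tumors (sgKrt19, replicates 5, 6 and 8) carried SpCas9 and a guide against *Krt19*. The labels do not say which of the designed guides was used or whether the injected cells were a polyclonal line or 1 clone, and each library is taken to be 1 tumor, so p-values measure the spread between these libraries, which may be technical.

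The libraries held 40781199 to 44972100 reads. Levels are given as normalized read counts, the reads of a gene over the size factor of its library. *Krt19* itself, the check of the labels, was 25574, 21179, 27618 and 17841 in sgScramble tumors and 1606, 1960.3 and 2470 in sgKrt19 tumors, which is a log2 fold change of −3.52 ± 0.18 (SE). Many markers of other cells than the cancer cells moved with the groups. All 8 T cell, all 6 leukocyte and all 7 skeletal muscle markers rose, where 17.9% of all genes tested rose and 16.0% fell. Of 8 macrophage and monocyte markers 3 rose, 1 fell and 4 were not called. The 7 skeletal muscle markers summed to 54.3 to 2078 in the sgScramble tumors and 17293 to 24632 in the sgKrt19 tumors. Among the controls all 7 were highest in sgScramble 3. There *Acta1* was 934, against 21.4, 21.7 and 26.9 in sgScramble 1, 2 and 4. Of the 7 epithelial markers, which stand for the labelled cancer cells, 4 rose and 3 were not called, with sums of 119355 to 156961 and 246353 to 260142 that rest mainly on *Krt8* and *Krt18*. *Epcam* was at a log2 fold change of 0.06, and *Cldn4* was at −1.23 and had 3 reads in sgKrt19 8. In RNA from whole tumors, fewer cells of a type and less RNA per cell cannot be told apart.

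Most of the antiviral genes were expressed more strongly in the sgKrt19 tumors. With limma on log2(value + 1), where a call is an adjusted p under 0.05 over all 21322 genes that passed the filter on low values, 30 of the 39 genes rose (76.9%), against 17.9% of all genes tested. None fell, against 16.0% of all genes tested, and none was lower at an unadjusted p under 0.05; edgeR and DESeq2 also called 0 lower. The median log2 fold change of the 39 was 1.01, a fold of 2.01, against 0.01 over all genes tested. All 39 passed the filter, and the lowest read count of any of them in any library was 72. The largest fold changes were those of *Mx1* (log2 2.04), *Oas2* (2.03), *Oas3* (1.78), *Cmpk2* (1.75), *Zbp1* (1.72) and *Isg15* (1.67).

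For 30 of the 39 genes every sgKrt19 tumor lay above every sgScramble tumor, against 21.7% of all genes tested, and 26 genes were both called and separated in this way. On the reads recovered from the table, edgeR called 30 of the 39 higher, the same 30 as limma, against 17.3% of all genes. When the test was made against a fold of 1.5 rather than against no change, 8 of the 39 passed, against 3.41% of all genes tested: *Mx1*, *Oas2*, *Oas3*, *Zbp1*, *Isg15*, *Oas1a*, *Bst2* and *Sp100*. Of all calls by limma 52.8% were higher, and 27.7% were when libraries were scaled by their total reads alone, a scaling that moved the median of all genes to −0.21. Under that scaling 22 of the 39 genes were called higher and 0 lower, against 2187 higher and 5705 lower of all 21322 genes tested.

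**Figure D1:**
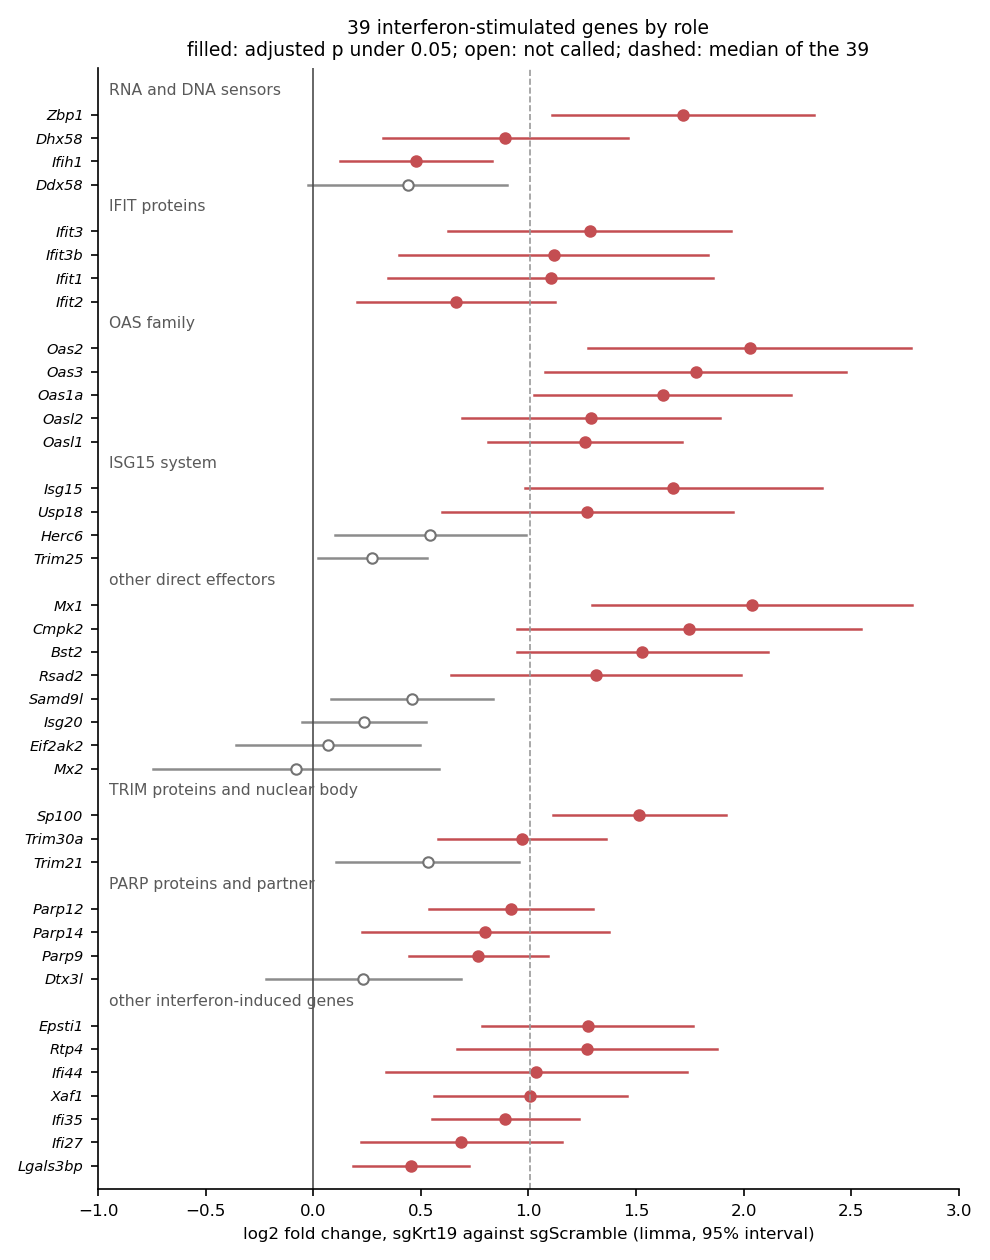
Log2 fold change of each of the 39 genes in sgKrt19 against sgScramble tumors (x axis) with its 95% interval from limma, grouped by role. Filled points passed an adjusted p of 0.05, open points did not, and the dashed line is the median of the 39 at 1.01; the OAS genes all lie to the right of it, and 4 of the 8 other direct effectors are open points between −0.08 and 0.46.

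The DNA around the start sites was read for the element that the complex of STAT2 and IRF9 binds. Of the 39 genes, 29 had at least 1 window of 250 bases before to 50 bases after an annotated start in the RefSeq promoter table (build GRCm38.p6). An ISRE core, spelled GAAANNGAAA and searched on both strands, occurred in the windows of 13 of the 29 (44.8%), against 3.99% of 27025 genes with a window. The core of the gamma-activated site (GAS), an element of the IFN-γ response spelled TTCNNNGAA, occurred in 6 of the 29 (20.7%), against 9.55% of all genes. The 4 called genes with an ISRE core and the largest fold changes are shown with every ISRE core match in capitals, 5′ to 3′ on the strand of the gene, which is the minus strand for all 4.
*Oas3*, chr5:120777610-120777909: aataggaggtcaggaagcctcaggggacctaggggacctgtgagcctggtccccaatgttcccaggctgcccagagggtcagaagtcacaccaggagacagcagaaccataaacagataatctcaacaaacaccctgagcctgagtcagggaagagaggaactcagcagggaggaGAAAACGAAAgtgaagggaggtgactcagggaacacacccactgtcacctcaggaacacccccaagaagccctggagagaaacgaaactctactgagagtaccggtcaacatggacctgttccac
*Isg15*, chr4:156200769-156201068: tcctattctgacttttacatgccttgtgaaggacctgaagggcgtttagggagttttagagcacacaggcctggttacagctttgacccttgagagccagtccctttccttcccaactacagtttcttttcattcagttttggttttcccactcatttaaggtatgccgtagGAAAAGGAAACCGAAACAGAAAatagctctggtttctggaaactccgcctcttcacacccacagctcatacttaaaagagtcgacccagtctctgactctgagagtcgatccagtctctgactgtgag
*Oas1a*, chr5:120907476-120907775: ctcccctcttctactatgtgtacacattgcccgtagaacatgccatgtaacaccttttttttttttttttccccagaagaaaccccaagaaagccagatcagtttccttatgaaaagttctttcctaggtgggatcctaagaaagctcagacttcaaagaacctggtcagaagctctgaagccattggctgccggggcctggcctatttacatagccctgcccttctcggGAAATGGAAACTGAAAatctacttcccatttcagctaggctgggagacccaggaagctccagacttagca
*Bst2*, chr8:71537423-71537722: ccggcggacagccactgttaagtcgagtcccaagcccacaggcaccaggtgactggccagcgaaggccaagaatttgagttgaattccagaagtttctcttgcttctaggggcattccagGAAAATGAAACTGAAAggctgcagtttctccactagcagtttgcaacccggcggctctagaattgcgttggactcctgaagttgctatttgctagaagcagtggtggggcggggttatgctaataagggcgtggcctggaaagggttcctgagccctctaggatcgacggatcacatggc

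*Oas3* held 1 match, whose first base lay 75 bases before the start site, and *Isg15* held 3 overlapping matches that began 78, 72 and 66 bases before it. In *Oas1a* the 2 overlapping matches began 20 and 14 bases before the start, and in *Bst2* 130 and 124 bases before. The windows of *Oas1a* and *Bst2* also held 1 GAS core each, and that of *Bst2*, which began 136 bases before the start, overlapped its first ISRE match. Calls were made among genes with and without the ISRE core: 10 of the 13 with it were called higher, with a median log2 fold change of 1.12, as were 11 of the 16 without it (0.91) and 9 of the 10 without a window here (1.08). The 3 genes with a match that were not called, *Ddx58*, *Trim21* and *Eif2ak2*, had all their matches after the start site, at 2 to 19 bases, while 8 of the 10 called genes had all of theirs before it. This pattern was seen after the values were known and was not tested. A match is a run of letters and not a measured binding site.

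**Figure D2:**
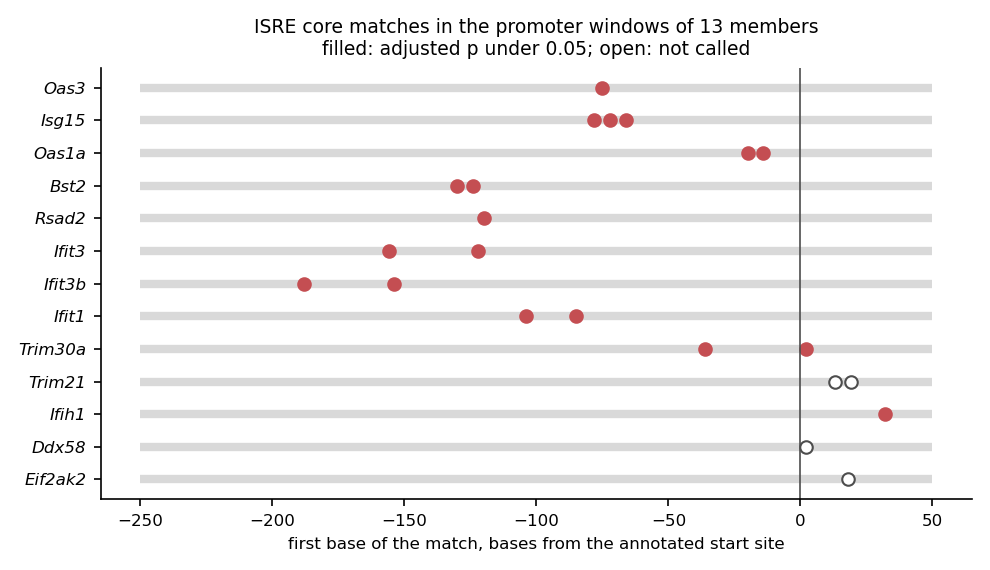
Distance of each ISRE core match from the annotated start site in bases (x axis) for the 13 genes whose window holds one, ordered from the largest log2 fold change at the top; grey bars are the windows. Filled points are called genes and open points are genes that were not called, whose matches lie 2 to 19 bases after the start.

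The roles are taken in turn, and their counts stand beside the 17.9% of all genes tested that rose. Among the sensors, which detect foreign nucleic acid, 3 of 4 rose and the sizes differed widely. *Zbp1*, which binds Z-form nucleic acid and can start necroptosis, was 1233, 991, 479 and 925 in sgScramble tumors and 2595, 2502 and 3466 in sgKrt19 tumors. Its log2 fold change was 1.72 ± 0.27 (SE), with an adjusted p of 0.00135 by limma, and the groups were far apart. *Ifih1*, which encodes the long double-stranded RNA sensor MDA5, was 666, 667, 488 and 609 in sgScramble tumors and 689, 899 and 956 in sgKrt19 tumors. The lowest sgKrt19 tumor was only just above the highest sgScramble tumors, and the log2 fold change was 0.48 ± 0.16 with a limma adjusted p of 0.0406. *Ddx58*, which encodes RIG-I, the sensor of RNA ends, was 1579, 1738, 1056 and 1726 in sgScramble tumors and 1528, 2169 and 2509.9 in sgKrt19 tumors. These groups overlapped, since sgKrt19 5 lay below 3 of the control tumors, and *Ddx58* was not called (log2 difference 0.44 ± 0.21, limma adjusted p = 0.127). *Dhx58*, encoding LGP2, a regulator of the other RNA sensors, rose by 0.89 on the log2 scale, with overlapping groups. The calls of *Ifih1* and *Dhx58* were lost without sgScramble 2, sgScramble 4 or sgKrt19 8, with limma adjusted p of up to 0.134 and 0.0838; that of *Ifih1* was also lost without sgScramble 3 (0.0854) or sgKrt19 6 (0.112), and *Ddx58* was called without sgKrt19 5 (0.0481).

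All 4 IFIT genes rose. Their proteins bind viral RNA that lacks the host cap and keep it from being translated, and the genes lie side by side on chromosome 19 (GRCm38, from *Ifit2* at 34550694 to the end of *Ifit1* at 34650009). *Ifit3* was 1394, 922, 524 and 624 in sgScramble tumors and 1799, 1673 and 2520.4 in sgKrt19 tumors. Its log2 fold change was 1.29 ± 0.30, with a limma adjusted p of 0.00898. *Ifit1* was 1002, 654, 319 and 403 in sgScramble tumors and 1065, 971 and 1504 in sgKrt19 tumors. In *Ifit1* the highest control, sgScramble 1, lay above the lowest edited tumor, sgKrt19 6, and the log2 fold change was 1.10 ± 0.34 (limma adjusted p = 0.0307). *Ifit2* had the smallest difference of the 4 and was 438, 383, 250.2 and 372 in sgScramble tumors and 449.7, 583 and 672 in sgKrt19 tumors, a rise of 0.66 ± 0.21 on the log2 scale with groups that did not overlap. *Ifit3b* rose by 1.12 on the log2 scale. *Ifit3* shares with *Ifit3b* 40.7% of the 76-base runs in its exons, the length of a read, so reads could fit both and neither value is certain. The call of *Ifit3* held without any 1 library. Those of the other 3 were lost without sgScramble 4 or sgKrt19 8, with limma adjusted p of up to 0.106 for *Ifit1*, 0.112 for *Ifit2* and 0.0886 for *Ifit3b*; *Ifit1* and *Ifit3b* were also lost without sgKrt19 5 (0.0666 and 0.0509), and *Ifit2* without sgScramble 2 (0.0549), sgScramble 3 (0.0525) or sgKrt19 6 (0.0818).

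The OAS family was the role with the highest median, and all 5 members rose with groups that did not overlap. OAS enzymes respond to double-stranded RNA by making oligoadenylates that switch on RNase L, which degrades RNA. *Oas2* was 404, 545, 204 and 364 in sgScramble tumors and 950.3, 1479 and 2228 in sgKrt19 tumors. Every edited tumor lay above the highest control, sgScramble 2, and the log2 fold change was 2.03 ± 0.34, with a limma adjusted p of 0.00169. *Oasl1*, an OAS-like protein without the synthetase activity, was 944, 816, 585 and 495 in sgScramble tumors and 1539, 1764 and 1655 in sgKrt19 tumors. It had the smallest difference of the 5, 1.26 ± 0.20, and the tightest edited group. *Oas3*, *Oas1a* and *Oasl2* rose by 1.78, 1.62 and 1.29 on the log2 scale. *Oas1a* shares 47.3% of its 76-base runs with its neighbor *Oas1g*, so its value is uncertain; *Oas1g* itself had a log2 fold change of 1.58. All 5 calls held without any 1 library.

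The ISG15 system attaches the ubiquitin-like protein ISG15 to other proteins and takes it off again, and its members moved unequally. *Isg15* was 1059.8, 594, 357 and 422 in sgScramble tumors and 1889, 1498 and 1969 in sgKrt19 tumors, and rose by 1.67 ± 0.31 on the log2 scale (limma adjusted p = 0.00302). *Usp18*, which removes ISG15 and also dampens signaling at IFNAR2, was 851, 587, 303 and 382 in sgScramble tumors and 1132, 1014 and 1459.7 in sgKrt19 tumors, and rose by 1.27 ± 0.30 (limma adjusted p = 0.0108). In both genes sgScramble 1 was the highest control and still lay below every edited tumor. The ligases did not pass the test. *Herc6*, the main ISG15 ligase of mice, was 636, 647, 416 and 594 in sgScramble tumors and 670.5, 773 and 1079.6 in sgKrt19 tumors (log2 difference 0.54 ± 0.20, limma adjusted p = 0.058). *Trim25*, a ubiquitin ligase that acts on RIG-I, was 4044, 3979.9, 3256 and 3497 in sgScramble tumors and 4209, 4327 and 4836 in sgKrt19 tumors (log2 difference 0.27 ± 0.11, limma adjusted p = 0.0881). In *Herc6* and *Trim25* every edited tumor was above every control, by a narrow margin. *Herc6* was called by DESeq2 and, with limma, without sgKrt19 5 (adjusted p = 0.0432).

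**Figure D3:**
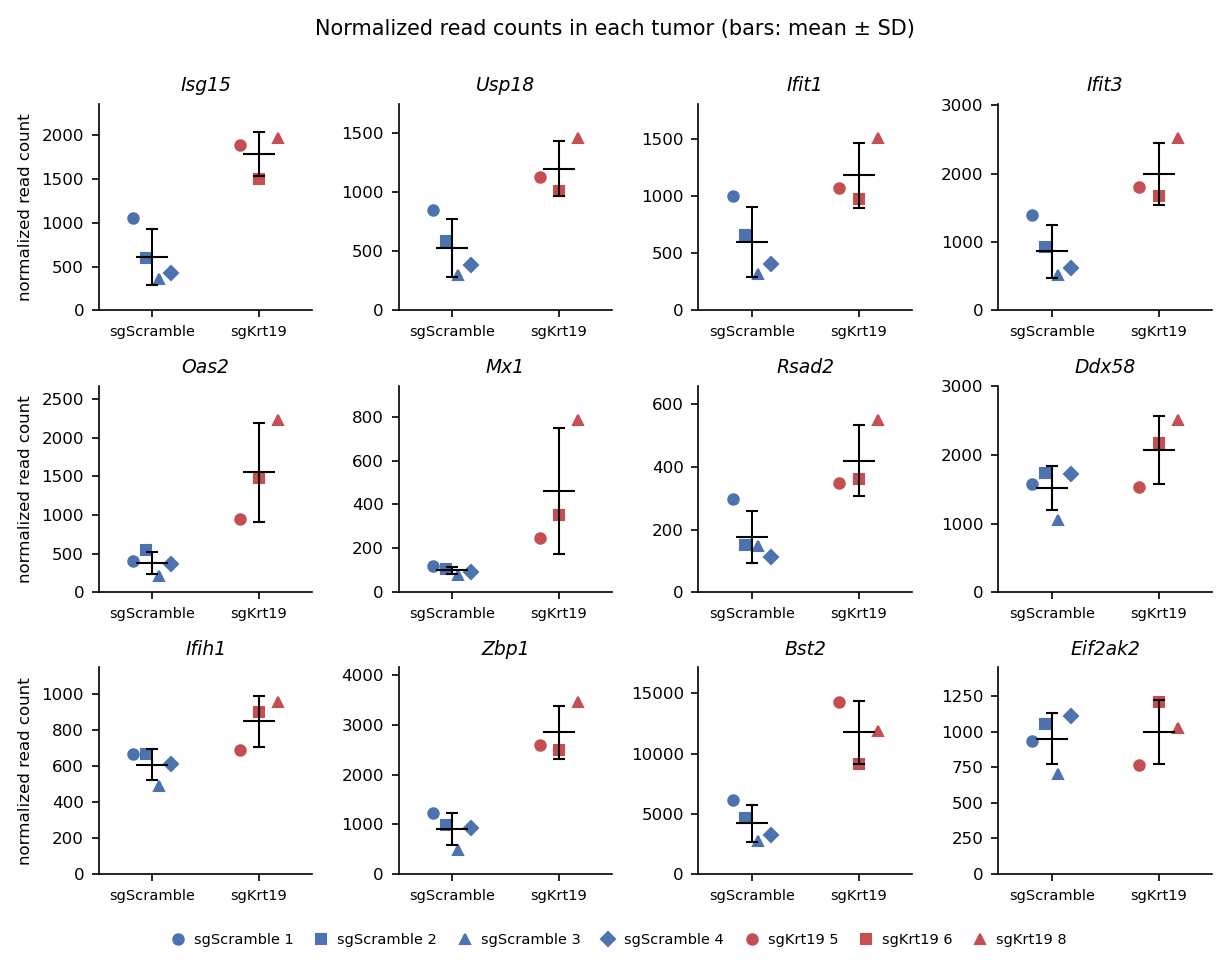
Normalized read counts (y axis, from 0) of 12 antiviral genes in each of the 4 sgScramble and 3 sgKrt19 tumors, 1 marker per tumor; bars are the mean ± SD. The groups do not overlap in 9 panels, and they overlap in *Ifit1*, *Ddx58* and *Eif2ak2*.

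Of the other direct effectors, which act on the virus or its products, 4 of 8 rose, against 17.9% of all genes tested, and 4 were not called. *Bst2* encodes tetherin, which holds budding virions at the cell surface, and was 6189.8, 4658, 2724 and 3272 in sgScramble tumors and 14309, 9106 and 11868 in sgKrt19 tumors. Its log2 fold change was 1.53 ± 0.26 (limma adjusted p = 0.00196), with every edited tumor above every control. Per kilobase of exon *Bst2* had the highest level of the 39 genes in both groups, with mean normalized counts per kilobase of 4663 in sgScramble and 13020 in sgKrt19 tumors. *Bst2* also marks plasmacytoid dendritic cells, and the markers *Siglech*, *Ccr9* and *Klk1* of those cells had at most 14, 14 and 9 reads in any library and were too low to be tested. *Siglech* was 2.79, 1.98, 1.83 and 2.78 in sgScramble tumors and 6.94, 7 and 14.7 in sgKrt19 tumors, so its groups did not overlap at these low counts, while *Ccr9* and *Klk1* overlapped. The part of these cells in the *Bst2* level was not tested. Of the 7 markers listed for them 4 were tested and 2 rose, against 17.9% of all genes tested. These were *Irf8* (0.83) and *Cox6a2* (4.96), which skeletal muscle also expresses. The other tested markers, *Spib* (0.14) and *Pacsin1* (0.42), were not called.

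*Mx1*, a dynamin-like GTPase that traps viral ribonucleoprotein, was 118, 107, 80.4 and 93.7 in sgScramble tumors and 246, 352 and 786 in sgKrt19 tumors. All 3 edited tumors lay above the controls, with sgKrt19 8 well above the other two, and the log2 fold change was 2.04 ± 0.33 (limma adjusted p = 0.00158); without sgKrt19 8 it was 1.57. Per kilobase of exon *Mx1* was the lowest of the 39 in the sgScramble tumors (mean 26.3) and 33rd in the sgKrt19 tumors (mean 122). Its neighbor *Mx2* was 146, 124, 75.8 and 86.2 in sgScramble tumors and 83.2, 77 and 150.2 in sgKrt19 tumors. These groups overlapped, the log2 fold change was −0.08 with a 95% interval of −0.74 to 0.59 (limma adjusted p = 0.856), and its sign turned when any of 4 of the libraries was left out. *Mx2* is annotated as a polymorphic pseudogene, and most laboratory mouse strains carry defective *Mx* alleles. *Rsad2*, which encodes viperin, a maker of a chain-terminating nucleotide, was 296, 152, 147 and 111 in sgScramble tumors and 349, 362 and 550.3 in sgKrt19 tumors (log2 difference 1.31 ± 0.30, limma adjusted p = 0.00914). *Cmpk2*, the nucleotide kinase gene next to it, rose by 1.75 on the log2 scale, with groups that did not overlap.

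*Eif2ak2*, which encodes PKR, the kinase that stops translation when it meets double-stranded RNA, was 935, 1055, 705 and 1110.1 in sgScramble tumors and 764, 1211 and 1028 in sgKrt19 tumors. The groups lay over each other, and the log2 fold change was 0.07 with a 95% interval of −0.36 to 0.50 (limma adjusted p = 0.801); the sign turned with the scaling by total reads and without sgScramble 3 or sgKrt19 6. *Isg20*, an exonuclease, was 1414, 1102, 1185 and 993 in sgScramble tumors and 1321, 1408 and 1379 in sgKrt19 tumors. Here sgScramble 1 was the highest of all 7 tumors, and the log2 fold change was 0.23 ± 0.13 (limma adjusted p = 0.18). *Samd9l*, which restricts poxviruses, was 2841, 2886, 1785 and 2681 in sgScramble tumors and 3114, 3449.6 and 3796 in sgKrt19 tumors (log2 difference 0.46 ± 0.17, limma adjusted p = 0.0592). Its groups did not overlap although it was not called. Without sgScramble 1, *Isg20* and *Samd9l* were called, with limma adjusted p of 0.0498 and 0.0497.

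Of the TRIM and nuclear body genes, 2 of 3 rose. *Sp100*, a component of nuclear bodies that silence incoming viral DNA, was 372, 326, 287 and 352 in sgScramble tumors and 725, 975 and 1228 in sgKrt19 tumors. The controls were tight and far below the edited tumors, and its log2 fold change of 1.52 ± 0.18 had the lowest adjusted p of the 39 genes (0.000281, limma). *Trim21*, a cytosolic receptor for antibody-coated virus, was 495, 511, 354 and 493 in sgScramble tumors and 553, 600.1 and 879 in sgKrt19 tumors (log2 difference 0.53 ± 0.19, limma adjusted p = 0.054). It was called by DESeq2 and, with limma, without sgKrt19 5 (adjusted p = 0.0453). *Trim30a*, which dampens inflammatory signaling, rose by 0.97 on the log2 scale.

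The PARP proteins attach ADP-ribose to proteins, and 3 of the 4 genes in this role rose, with a median log2 fold change of 0.78 over the 4 against 1.62 over the OAS genes. *Parp12* was 1629, 1377, 1023 and 1374 in sgScramble tumors and 2154, 2424 and 3068 in sgKrt19 tumors, and rose by 0.92 ± 0.17 on the log2 scale (limma adjusted p = 0.00303). *Parp14* rose by 0.80 with overlapping groups, and its call was lost without sgScramble 1 (limma adjusted p = 0.0524), sgKrt19 6 (0.0872) or sgKrt19 8 (0.129). *Parp9* rose by 0.77 on the log2 scale. *Dtx3l*, the ubiquitin ligase that pairs with PARP9 in a complex, was 1704, 1918, 1149.9 and 1871 in sgScramble tumors and 1502, 1925 and 2421 in sgKrt19 tumors. Its groups overlapped and it was not called (log2 difference 0.23 ± 0.20, limma adjusted p = 0.398).

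The last 7 genes, which are interferon-induced but have mixed or less settled functions, all rose. *Epsti1* was 237, 124, 174 and 188 in sgScramble tumors and 474, 481 and 344 in sgKrt19 tumors, the largest difference of the 7, at 1.27 ± 0.22 (limma adjusted p = 0.00212). *Lgals3bp*, a secreted glycoprotein that binds galectins, was 12129.8, 13607, 10628 and 12447 in sgScramble tumors and 15982, 17742 and 16283 in sgKrt19 tumors, the smallest of the 7, at 0.45 ± 0.12 (limma adjusted p = 0.0172). In both genes the groups were apart, and *Epsti1* was the only one of the 39 in which sgKrt19 8 was the lowest edited tumor. The others were *Rtp4* (1.27), *Ifi44* (1.04), *Xaf1* (1.01), whose product opposes an inhibitor of apoptosis, *Ifi35* (0.89) and *Ifi27* (0.69), all as log2 fold changes. Among these 7, calls were lost for *Lgals3bp* without sgScramble 3 (limma adjusted p = 0.0503) or sgKrt19 6 (0.0561), for *Ifi44* without sgScramble 4 (0.0575), sgKrt19 6 (0.0592) or sgKrt19 8 (0.108), and for *Ifi27* without sgScramble 4 (0.0686), sgKrt19 5 (0.0930) or sgKrt19 8 (0.0819).

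Neighboring genes and close relatives did not always move by the same amount, so 4 pairs were compared within each tumor as ratios of normalized read counts, which do not depend on the scaling of a library. The pairs were chosen after the values were seen. The ratio of *Mx1* to *Mx2* was 0.809, 0.857, 1.06 and 1.09 in the sgScramble tumors and 2.96, 4.57 and 5.23 in the sgKrt19 tumors, and that of *Parp9* to *Dtx3l* was 1.31, 1.10, 1.28 and 1.08 against 2.09, 1.67 and 1.45. Both ratios were higher in every edited tumor, by 2.12 and 0.53 on the log2 scale. *Parp9* and *Dtx3l* overlap at their ends on opposite strands, and 9.40% of the exon bases of *Parp9* lie in this overlap. For *Ifit3* to *Ifit3b* the difference was small but again without overlap, at 0.17 on the log2 scale. *Rsad2* to *Cmpk2* overlapped between the groups, with a difference of −0.43. The exact two-sided permutation test gave 0.0571 for the first 3 pairs and 0.171 for the last. Adjusted over the 4 pairs these were 0.0762 and 0.171. The smallest p that 4 against 3 tumors allow is 0.0571, so no pair could pass 0.05. The test therefore cannot decide whether a ratio differed.

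**Figure D4:**
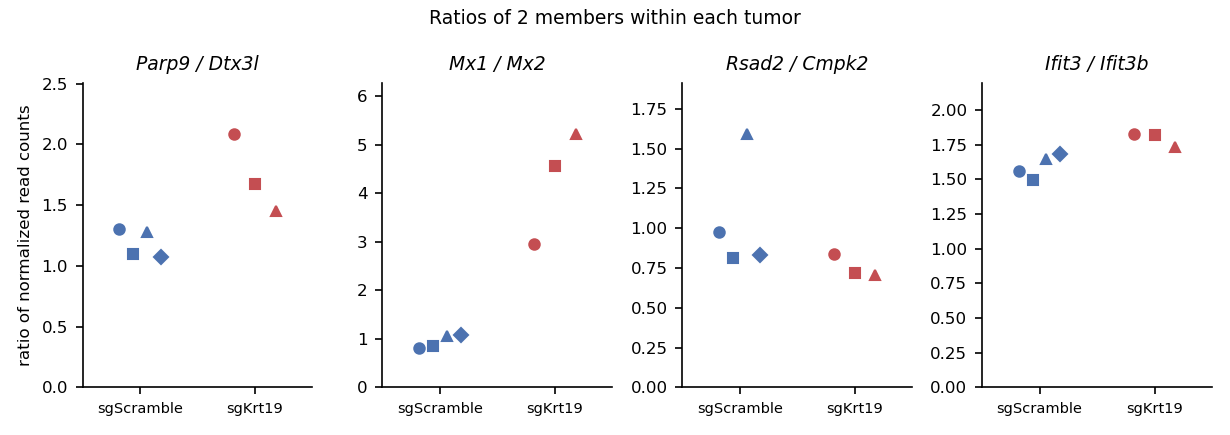
Ratio of the normalized read counts of 2 genes within each tumor (y axis, from 0), 1 panel per pair and 1 marker per tumor, with sgScramble at left and sgKrt19 at right. The *Mx1* to *Mx2* ratio lies between 0.809 and 1.09 in the controls and between 2.96 and 5.23 in the edited tumors, and the *Rsad2* to *Cmpk2* ratios overlap.

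As a mean score, the average of log2(value + 1) over the 39 genes, the sgScramble tumors stood at 9.79, 9.55, 8.92 and 9.29 and the sgKrt19 tumors at 10.18, 10.31 and 10.68. The group means were 9.39 ± 0.37 (SD, n = 4) and 10.39 ± 0.26 (SD, n = 3), a difference of 1.003, and the groups did not overlap. The tumors held an order that most genes shared. Of the 39 genes, 34 were lowest of all 7 tumors in sgScramble 3, 27 had their highest control value in sgScramble 1, and 32 were highest of all 7 in sgKrt19 8. Within the sgScramble group the highest value was 1.24 to 3.28 times the lowest (median 1.91 over the genes). Reads of the 39 genes made up 0.0913% to 0.138% of the library in sgScramble tumors and 0.158% to 0.216% in sgKrt19 tumors. Without sgScramble 3 the score difference was 0.85, and without sgKrt19 8 it was 0.86.

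The leukocyte markers differed between the groups in the same direction as this score. Their mean score (*Ptprc*, *Coro1a*, *Lcp1*, *Cd53*, *Laptm5* and *Cd52*) was 10.42 to 10.86 in the sgScramble tumors and 11.38 to 11.78 in the sgKrt19 tumors, a difference of 0.98, and that of the 8 T cell markers differed by 2.43. Summed, the leukocyte markers were 9965 to 13859 and 17742 to 24294 normalized reads in the 2 groups, and the T cell markers 567 to 1135 and 3207 to 5912. The leukocyte score was also subtracted from that of the 39 genes in each tumor. The sgScramble tumors then stood at −1.06, −0.87, −1.64 and −1.57 and the sgKrt19 tumors at −1.60, −1.46 and −0.71. These groups overlapped, with a difference of 0.03, which depends on the list subtracted. The T cell score differed by 2.43 and the macrophage and monocyte score by 0.16. Within the edited group the order was not shared: sgKrt19 8 had the highest score of the antiviral genes and the lowest leukocyte and T cell scores. Among sgScramble 1 to 4 the leukocyte scores were 10.85, 10.42, 10.56 and 10.86, an order that the antiviral genes did not share. The T cell scores there were 6.91, 6.78, 5.99 and 6.20, in the same order as those of the antiviral genes. Of 8 macrophage and monocyte markers 3 rose and 1 fell, where 17.9% of all genes tested rose and 16.0% fell. The macrophage and monocyte score differed by 0.16, and of 6 neutrophil markers 5 rose. The part of these cells in the levels of the antiviral genes was not tested.

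**Figure D5:**
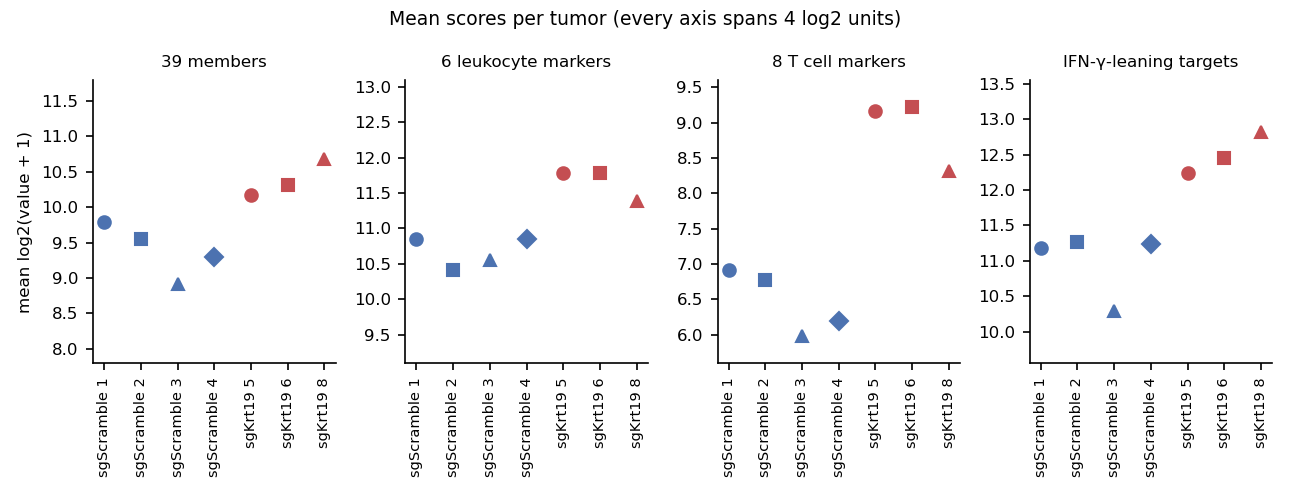
Mean of log2(value + 1) over 4 gene lists in each tumor (y axis, every panel spanning 4 log2 units). The 39 antiviral genes are higher in all 3 sgKrt19 tumors (10.18 to 10.68) than in the 4 sgScramble tumors (8.92 to 9.79), as are the leukocyte, T cell and IFN-γ-leaning lists, and sgKrt19 8 is the highest edited tumor for the first list and the last but the lowest for the leukocyte and T cell lists.

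The ligands of the pathway were scarce. Of 20 interferon genes looked for, 11 were in the table, and 8 of these had no more than 3 reads in any library. *Ifnb1*, the first type I interferon made by most cells, had at most 6 reads in a library, with normalized counts of 5.57, 0.988, 0 and 0 in the sgScramble tumors and 1.16, 0 and 1.05 in the sgKrt19 tumors, near the floor of 3 reads (2.74 to 3.47). A difference in these 9 transcripts was not detectable at this depth, and *Ifne*, the 1 type I interferon that was tested, was not called (0.48, limma adjusted p = 0.323). *Ifng* was 40.9, 24.7, 22.8 and 29.7 in sgScramble tumors and 187, 147 and 199.5 in sgKrt19 tumors. Every edited tumor lay above every control, and *Ifng* rose by 2.58 ± 0.25 on the log2 scale (limma adjusted p = 9.67e-05).

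Among the receptors and their signaling genes, none of 12 fell, against 16.0% of all genes tested. A list of 12 genes is too short to set apart from that share. *Ifnar1* was 2553, 2602, 2390.1 and 2609.8 in sgScramble tumors and 2614, 2477 and 2506 in sgKrt19 tumors, and *Ifnar2* was 1532, 1426, 1410.2 and 1310.5 in sgScramble tumors and 1869, 1624 and 1450.3 in sgKrt19 tumors. Neither receptor gene was called, with log2 fold changes of −0.0031 (95% interval −0.21 to 0.20) and 0.21. *Irf9* was 1914, 1848, 1496 and 1683 in sgScramble tumors and 2282, 2064 and 2744 in sgKrt19 tumors and rose by 0.44 on the log2 scale. *Stat2* was 2206, 3013, 1512 and 2460.5 in sgScramble tumors and 2417, 3018 and 4880.1 in sgKrt19 tumors, overlapped between the groups and was not called (0.56, limma adjusted p = 0.12). *Ifngr1*, a subunit of the IFN-γ receptor, rose by 0.49, and the kinase gene *Tyk2* was at −0.16 (limma adjusted p = 0.483).

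In the pathway that induces interferon, 6 of 15 genes tested rose and none fell (median 0.30). Over all genes tested 17.9% rose and 16.0% fell. *Irf7*, the interferon-inducible factor that amplifies interferon production, was 1182, 708, 549 and 647 in sgScramble tumors and 2066, 1863 and 3416 in sgKrt19 tumors, and rose by 1.68 ± 0.27 on the log2 scale (limma adjusted p = 0.00141). *Tlr3*, *Myd88*, *Unc93b1*, *Tmem173* and *Irf5* rose by 1.14, 0.65, 0.64, 0.41 and 0.34 on the log2 scale. The lowest was *Traf3*, at −0.39 (limma adjusted p = 0.0506).

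Interferon-stimulated genes outside the 39, listed with earlier results of these data known, mostly moved in the same direction. Of 45 others tested, 33 rose and none fell, against 17.9% and 16.0% of all genes tested. Their median log2 fold change was 0.91. The largest was *Ifit1bl1*, an *Ifit1* relative, at 29.7, 17.8, 15.5 and 17.6 in sgScramble tumors and 129.5, 174 and 311 in sgKrt19 tumors (log2 difference 3.23 ± 0.33, limma adjusted p = 0.000138), and the lowest was *Helz2* at −0.15 (limma adjusted p = 0.666). Of 16 genes that respond mainly to IFN-γ, listed in the same way, 15 rose, against 17.9% of all genes tested. The median of the 16 was 1.43. *Ido1*, a tryptophan-degrading enzyme, was the largest of these, at 842, 756, 217 and 612 in sgScramble tumors and 4993, 8774 and 10525 in sgKrt19 tumors (log2 difference 3.84 ± 0.43, limma adjusted p = 0.000201), and *Irgm1*, an immunity-related GTPase, was the smallest, at 0.62. Many of the 39 genes respond to both kinds of interferon, and the parts of IFN-γ and of type I interferon in their levels cannot be told apart in these data.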

How the data were processed

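RNA was sequenced from 7 tumors, 4 sgScramble and 3 sgKrt19, as single reads of 76 bases; each library entered as 1 replicate and the groups share no replicate number. The deposited values are a signal, made by the authors from gene-level read counts over 1 size factor per library, and every value was a whole multiple of 1 read within 0.1 of a read (100% of values in each library), so reads were recovered. The labels name build mm10; aligner, counter and annotation are not given in the sources used here, nor whether counting used strand. Values were tested as log2(value + 1) by limma 3.58.1 (lmFit, eBayes with trend) in R 4.3.3 on genes that reached a value of 10 in 3 or more libraries, with Benjamini-Hochberg adjustment over all 21322. Alternatives were edgeR 4.0.16 (quasi-likelihood) and DESeq2 1.42.0 on recovered reads, library totals, pseudocounts of 0.5 and 10, other filters, a fold of 1.5 and leaving out each library; the code was tested on simulated data. Depth was 40781199 to 44972100 reads, and the floor of 3 reads covers counting error only, since reads carry no molecular identifiers. Positions are from GENCODE M21 (GRCm38), which held 97.55% of the identifiers in the table with the same version; *Isg15* and *Mx1* were matched without it. The genes, roles and lists were chosen with earlier results of these data known. Values in every tumor are given for the highest and lowest gene of each role, every gene not called, and 12 genes chosen by name; other genes are given by fold change. A gene of the signaling list is not reported here.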

Additional observations from a re-analysis of the deposited data

Results flagged for a closer look

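Among the 4 sgScramble tumors, 2 of 40 genes searched (the 39 and *Krt19*; 5.0%) had 1 tumor far from the others, about the 1 in 20 that chance gives. *Ifi35*, whose product partners with NMI, was 1145 in sgScramble 1, with the other 3 controls between 789 and 848. *Trim21* was 354 in sgScramble 3, the tumor lowest for 34 of the 39 genes, with the other 3 between 493 and 511.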

How the results depend on the processing

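Of the 30 genes called higher, 21 were called under each of 14 alternatives (other tools, scalings, pseudocounts and filters, and each library left out), and *Ifit1*, *Ifit2*, *Ifit3b*, *Ifih1*, *Dhx58*, *Ifi44*, *Ifi27*, *Parp14* and *Lgals3bp* lost the call under at least 1. The number called higher was 30 with edgeR, 32 with DESeq2, 22 with libraries scaled by total reads (all genes: 27.7% of calls higher, against 52.8%), 22 to 31 with 1 library left out, and 8 for a fold above 1.5. Of all 21322 genes tested, 3689, 4109, 2187, 2624 to 4102 and 728 were called higher, in the same order. No alternative called a gene lower. With 1 library left out the median log2 fold change was 0.81 to 1.15 and the score difference 0.85 to 1.14; scaled by total reads these were 0.79 and 0.79, and the score difference relative to all tested genes, an alternative added after the data were seen, was 0.99. Signs turned for *Eif2ak2* and *Mx2* alone. *Eif2ak2* was −0.15 scaled by total reads, and −0.081 to 0.25 with 1 library left out (−0.068 without sgScramble 3, −0.081 without sgKrt19 6). *Mx2* was −0.38 to 0.098 with 1 library left out (0.08, 0.0046, 0.043 and 0.098 without sgScramble 1, sgScramble 2, sgKrt19 5 and sgKrt19 6). The cause was not tested. No paired analysis was possible because the groups share no replicate number. Genes with close copies or overlaps are uncertain, and without the 3 that share over 30% of their 76-base runs the median was 0.94.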

Other observations

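Among the interferon-inducible genes outside the 39, those named here were chosen after their values were seen. All 8 *Ifi200* genes of the list, whose proteins bind DNA, rose, against 17.9% of all genes tested. Beside *Mndal*, which lay between *Ifi205* and *Ifi203*, their log2 fold changes were 0.71 (*Ifi204*), 0.85 (*Ifi211*), 0.91 (*Ifi207*), 1.08 (*Ifi205*), 1.29 (*Ifi203*), 1.51 (*Ifi209*) and 2.89 (*Ifi208*), against a median of 0.91 over the 45 genes of the list that were tested. *Phf11b* and *Phf11d* rose by 1.97 and 2.92. Of the enzymes that load ISG15 onto its targets, *Ube2l6* rose by 1.54 and *Uba7* by 0.55, where the ligase *Herc6* was at 0.54 and was not called.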
